A study of Caenorhabditis elegans with 8 samples.

Results

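Chromatin of Caenorhabditis elegans oocytes was cut by 2 nucleases, and the resulting maps of nucleosome-length DNA were set side by side. One map is the single-end library of endo-cleaved DNA of 140 to 240 bp, in which the oocytes' own nuclease made the ends. The other is the library of nucleosome core DNA of 150 bp made with micrococcal nuclease (MNase), an added enzyme. These are 2 of the 8 libraries of the series, chosen because both hold DNA about as long as the stretch wrapped in a nucleosome. Endo-cleaved libraries of 90 to 140 bp (single-end) and of 130 to 430 bp (paired-end) are used only for comparison, since they come from the same endogenous nuclease.

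A nucleosome is a stretch of DNA wrapped around a core of histone proteins, and the centre of that stretch is called the dyad. MNase digests the linker DNA between nucleosomes and trims the exposed ends, so that core DNA is left over. An endonuclease that nicks DNA lying on the histone surface reaches only the face of the helix that is turned outward, and its cuts are therefore spaced by about a helical turn. C. elegans has such enzymes of its own, among them NUC-1, a type II DNase that degrades the DNA of dying cells. These libraries do not show which enzyme made the endogenous cuts.

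All oocytes came from fer-1(b232) hermaphrodites raised at the restrictive temperature of 25 to 26 °C, at which the sperm of this mutant cannot fertilize, and no wild-type oocytes are included. The oocytes were frozen, and ground in liquid nitrogen. For the endo-cleaved libraries the powder went straight into a denaturing lysis buffer. For the MNase library it was suspended in a buffer with calcium and digested for 2 minutes at 37 °C. The labels list more than one MNase dose without saying which one made the library, whose track line calls the digestion heavy. MNase was added to oocytes of the same kind, so its library can also hold ends made by the endogenous nuclease, and their share was not measured. The cells are ovulated, unfertilized oocytes that have endoreduplicated their DNA, and a library averages over many of them. Each condition has 1 library. No test between libraries was possible, and the range over the 6 chromosomes is the only spread given. Chromosomes of 1 library are not replicates, and that range leaves out the variation between oocyte preparations.

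A tag marks the 5′ end of a fragment on its strand, and each position and strand was counted once. The endo-cleaved library holds 32660817 tags at 13040032 positions, or 2.50 tags for each position. The MNase library holds 7892011 tags at 6852300 positions, or 1.15 tags for each. In the endo-cleaved library 31.5% of the positions carry 1 tag, against 88.1% in the MNase library. Counting every tag would thus give the repeatedly seen positions of the endo-cleaved library much more weight. The genome build is not given in the sources used here, so the coordinates below are those of the deposited lists and carry no gene names.

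Both libraries showed fragments of nucleosome length when plus-strand ends were paired with minus-strand ends downstream, but the shapes differed. The libraries were made from DNA of chosen lengths, with a wider range stated for the endo-cleaved library. A most frequent distance near nucleosome length was thus largely set by that choice and is no finding about the nucleases. The part of the chosen lengths in the difference of shape was not tested. In the MNase library the most frequent distance was 148 nt, both end bases included, with 1.51 times the pairs found on average at 300 to 400 nt. The chromosomes gave modes of 148 to 151 nt and heights of up to 1.54. In the endo-cleaved library the mode lay at 151 nt (151 to 152 nt by chromosome), with a height of only 1.13 (1.11 to 1.14 by chromosome).

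The MNase pairs formed 1 large hump, whose mean height was 1.41 over the 20 nt that start at 140 nt. It fell to 1.19 over the next 20 nt and to 1.08 over the 20 nt after those. The endo-cleaved pairs formed a low and wide rise of 1.07, 1.08 and 1.05 over the same stretches. On that rise stood a comb of crests at 140, 151, 161, 170, 180 and 190 nt, and it went on below nucleosome length at 100, 110, 120 and 131 nt. The crest at 100 nt reached 1.05, and the troughs beside it averaged 0.919. The MNase library had small crests as well at 106, 116 and 127 nt, of 1.09, 1.13 and 1.17. An 11-nt running mean, which flattens the comb, put the maximum of the endo-cleaved library at 156 nt with a height of 1.09 and that of the MNase library at 151 nt with a height of 1.48.

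**Figure D1:**
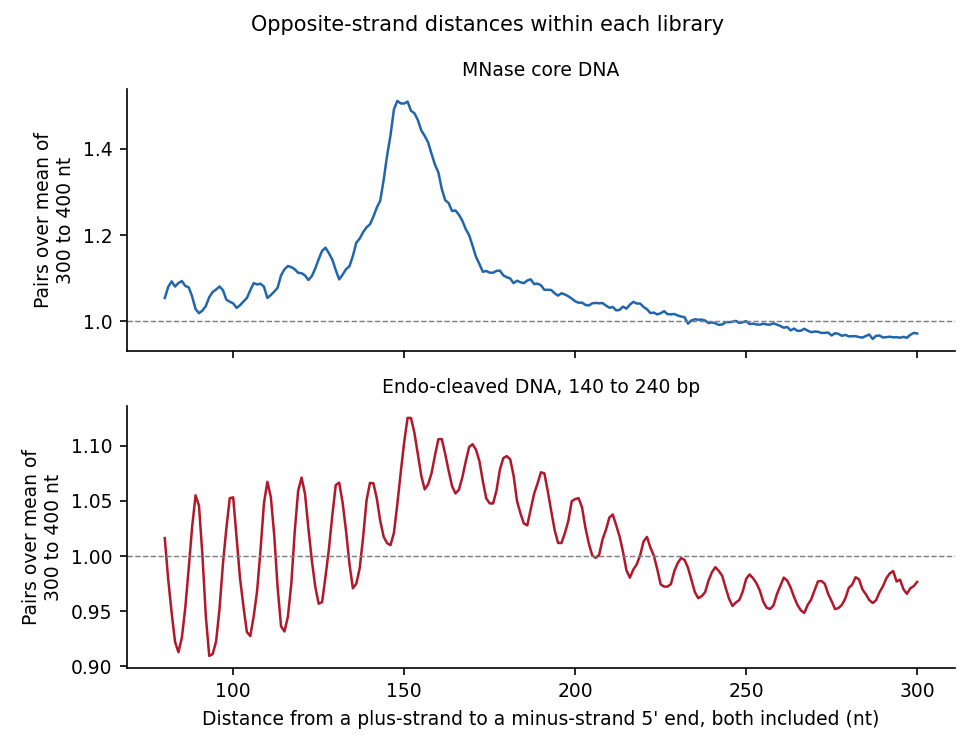
Number of pairs of a plus-strand and a minus-strand 5′ end of the same library by their distance in nt (x axis), divided by the mean over 300 to 400 nt (y axis, a separate scale for each panel), for the MNase library above and the endo-cleaved library below. The MNase curve has 1 large hump with its top at 148 nt and 1.51, while the endo-cleaved curve is a comb of crests about 10 nt apart whose highest, at 151 nt, reaches 1.13.

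The cuts of the 2 nucleases lay near each other on the same strand moderately more often than at larger distances, with differences between neighbouring bases. For every MNase end the offset to each endo-cleaved end of the same strand was counted, a positive offset meaning that the endo-cleaved end lies inside the fragment that the MNase end begins. The most frequent offset was 4 nt, where pairs were 1.41 times as frequent as on average at 500 to 1000 nt. With every tag counted the mode was 1 nt, with a height of 2.11. With each position counted once, the offset of 4 nt was the mode on each of the 6 chromosomes and on each strand, with heights from 1.35 on chromosome X to 1.45 on chromosome I. Over offsets up to 200 nt the curves of the strands differed by at most 0.00912.

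Pairs with both ends at the same base were not favoured to the same degree. Their height was 1.07 at an offset of 0, between 1.18 at -1 nt and 1.38 at 1 nt. In all, 513118 positions were ends of both libraries on the same strand. They make up 3.93% of the endo-cleaved positions and 7.49% of the MNase positions.

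The pattern close to 0 returned with endo-cleaved DNA of other sizes. Against the same MNase ends, the endo-cleaved library of 90 to 140 bp also had its mode at 4 nt, with a height of 1.41 there and 1.07 at 0. The ends of the paired-end library gave 4 nt, 1.39 and 1.08. Between endo-cleaved libraries the mode was 0. The 140 to 240 bp ends matched those of the 90 to 140 bp library at the same base with a height of 2.18 (2.08 to 2.24 by chromosome), and those of the paired-end library with a height of 2.14 (2.07 to 2.19). On each chromosome the height at 0 within the endogenous nuclease was thus above that between the MNase and the 140 to 240 bp ends, which ranged from 1.03 to 1.11.

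Away from 0 the offsets formed 20 crests between -98 and 97 nt, on average 10.3 nt apart. Outside the MNase end they lay at -7, -17, -26, -38, -47 and -58 nt with heights from 1.32 down to 1.10. Inside it they lay at 14, 25, 34, 46 and 55 nt with heights from 1.21 down to 1.09. A sinusoid fitted between 11 and 100 nt inside the MNase end had a period of 10.2 nt and an amplitude of 3.29% of the mean. From 11 to 100 nt outside, the period was 10.1 nt and the amplitude 2.79%. At shorter and longer periods, fitted as a control, the largest amplitude was 0.660% inside and 0.747% outside. The frequency of endo-cleaved ends thus rose and fell weakly in steps of about a helical turn, counted from the ends of the MNase library.

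**Figure D2:**
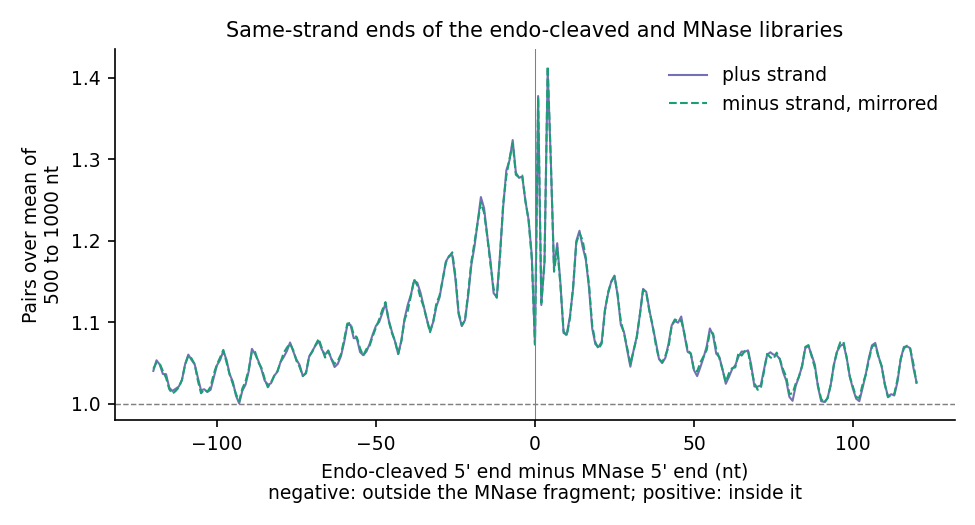
Same-strand pairs of 1 MNase 5′ end and 1 endo-cleaved 5′ end by their offset in nt (x axis), divided by the mean over offsets of 500 to 1000 nt (y axis), for the plus strand and the mirrored minus strand. The curves of both strands lie on each other, with sharp values at 1 and 4 nt, a dip to 1.07 at 0 and crests about 10 nt apart on both sides.

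On a broader scale the endo-cleaved ends lay slightly more often outside the MNase ends than inside them. The mean height over offsets of 1 to 40 nt was 1.18 outside and 1.14 inside, and the outside was higher on 6 of 6 chromosomes. The 11-nt running mean had its maximum at -4 nt, on every chromosome, with a height of 1.26. The sign of the offset therefore depends on whether single bases or the smoothed curve are read. The 90 to 140 bp library, whose fragments are shorter than core DNA, had the opposite order, with 1.14 outside and 1.16 inside and the inside higher on 6 of 6 chromosomes.

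To ask whether the cuts belong to the same nucleosomes, each end was moved inward by 75 nt in the endo-cleaved library and by 74 nt in the MNase library, from the most frequent distance of each library, which gave an inferred midpoint. The coincidence is the number of midpoint pairs within 20 nt divided by that at 500 to 1000 nt. Between the nucleases it was 1.17. Chromosomes I and III both had 1.19, chromosomes II and IV both had 1.17, chromosome V had 1.16 and chromosome X had 1.14. All 6 chromosomes lay above 1, and X lay lowest.

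Pairs taken from opposite strands, which cannot arise from ends that lie at the same place, had a coincidence of 1.14 (1.11 to 1.16 by chromosome). Pairs from the same strand had 1.2 (1.16 to 1.23). As a scale for these values, opposite-strand midpoints within the MNase library had a coincidence of 1.40 (1.37 to 1.45), and those within the endo-cleaved library had 1.09 (1.07 to 1.11). The endo-cleaved midpoints thus coincided more often with MNase midpoints of the opposite strand than with their own, and the ranges over chromosomes did not overlap. All endo-cleaved ends were moved by the same shift although their fragments differ in length, and in pairs within that library this affects both midpoints. Its part in the difference was not tested.

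The paired-end library gives midpoints without any shift, because both ends of a fragment are known. Of its 13573150 distinct fragments, 10447286 or 77.0% were 140 to 240 nt long, with a median of 160 nt. Their midpoints had a coincidence of 1.24 with MNase midpoints (1.21 to 1.27 by chromosome) and of 1.15 with the inferred midpoints of the endo-cleaved library (1.12 to 1.17).

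Pairs of 1 midpoint from each nuclease had further maxima, at about the distance of a neighbouring nucleosome. After a running mean of 21 nt the coincidence fell to 1.03 at 94 nt and rose again to 1.08 at 177 nt, with chromosomes at 169 to 177 nt. Another maximum of 1.05 followed at 362 nt. Within the MNase library the maximum lay at 173 nt (171 to 176 nt), and within the endo-cleaved library at 163 nt on every chromosome. All of these positions average both sides of a midpoint. With every tag counted, the maximum between the nucleases moved from 177 to 128 nt. At dyads chosen on the endo-cleaved plus strand, described below, that library's sides differed. At dyads chosen on the MNase plus strand, endo-cleaved minus-strand midpoints had flanking maxima at -170 and 190 nt. The MNase minus strand had them at -178 and 184 nt. None of these positions is therefore shown to be a nucleosome spacing.

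Positions chosen with 1 library were then read with the other. A dyad was called where plus-strand midpoints of a library piled up within 20 nt. At least 6 of them were needed, and at least 3 times the number that the surrounding 1 kb would give. No minus-strand ends were required, so a dyad called in this way need not be a nucleosome. Ends that took no part in the choice served as the readout. Minus-strand ends of the same library can be the other ends of the fragments that made the choice. They are therefore not independent of it.

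The MNase plus strand gave 66004 such dyads. At these, endo-cleaved midpoints of the plus strand were 1.48 times as frequent within 20 nt as at 500 to 1000 nt, and those of the minus strand 1.33 times. On the chromosomes the minus-strand value ran from 1.29 on X to 1.38 on I. The MNase library's own minus strand reached 2.15 at the same dyads (2.09 to 2.27 by chromosome). The endo-cleaved midpoints peaked 5 nt upstream of the dyad on the plus strand and 11 nt downstream on the minus strand. The MNase minus strand, which the choice did not use either, peaked 5 nt downstream. Flanking maxima of 1.15 to 1.25 lay at -186 and 173 nt on the plus strand and at -170 and 190 nt on the minus strand.

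The endo-cleaved plus strand gave 46856 dyads. MNase midpoints there were 1.79 times as frequent on the plus strand and 1.48 times on the minus strand, with 1.42 on X to 1.54 on III for the latter. The endo-cleaved library's own minus strand reached 1.33 (1.28 to 1.36 by chromosome). By these counts, MNase midpoints of the minus strand were more frequent than the endo-cleaved library's own, on 6 of 6 chromosomes. The MNase minus strand peaked 12 nt downstream of the dyad with a height of 1.60. The endo-cleaved minus strand peaked farther away, 17 nt downstream, with a height of 1.46. All endo-cleaved ends were moved by the same shift although their fragments differ in length, and the part of this in the contrast was not tested. Fragments of the paired-end library were 1.62 times as frequent at MNase dyads and 1.63 times at endo-cleaved dyads.

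Stronger MNase dyads had more endo-cleaved DNA. For the 34522 dyads at 3 to 4 times their surroundings the endo-cleaved minus strand read 1.29. It read 1.34 for 17535 dyads at 4 to 5 times, 1.41 for 8118 dyads at 5 to 6 times and 1.48 for 5829 dyads above that. The MNase minus strand rose alongside from 2.01 to 2.67. The strongest endo-cleaved dyads did not follow this order. At the 1129 dyads above 6 times their surroundings the MNase plus strand read 4.36, but the MNase minus strand read 0.999 and the endo-cleaved minus strand 0.888. At those places plus-strand ends of both libraries piled up together with no matching ends on the other strand.

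The cuts themselves were placed around dyads called from both strands, with at least 8 midpoints, at least 2 of them from each strand and the same 3-fold limit. Around 69840 MNase dyads the MNase ends peaked 75 nt upstream, as the choice of dyads implies. The endo-cleaved ends, which the choice did not use, peaked 85 nt upstream with a height of 1.59 (11-nt running mean). The chromosomes gave 83 to 85 nt and heights from 1.52 on X to 1.64 on I. Both peaks are broad, and since the MNase peak was set by the choice of dyads, the distance between them is no measure of how far apart the nucleases cut.

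A lower and wider maximum of 1.27 lay 91 nt downstream, where the near edge of the next nucleosome would be. Within 40 nt of the dyad the endo-cleaved ends averaged 1.02, and the lowest value of the 11-nt running mean was 0.982. In the curve without a running mean, small crests at -50, -40, -30, -20, -9, 2, 13, 24, 34 and 43 nt crossed the dyad. Averaged over these dyads, endogenous cuts thus also fell between the edges marked by MNase, at about the level of the surroundings and in steps of about a helical turn. MNase ends averaged 1.09 over the same 40 nt on either side. Around 12450 endo-cleaved dyads the MNase ends peaked 76 nt upstream with a height of 2.42, and the chromosomes gave 74 to 79 nt and heights from 2.36 to 2.49.

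**Figure D3:**
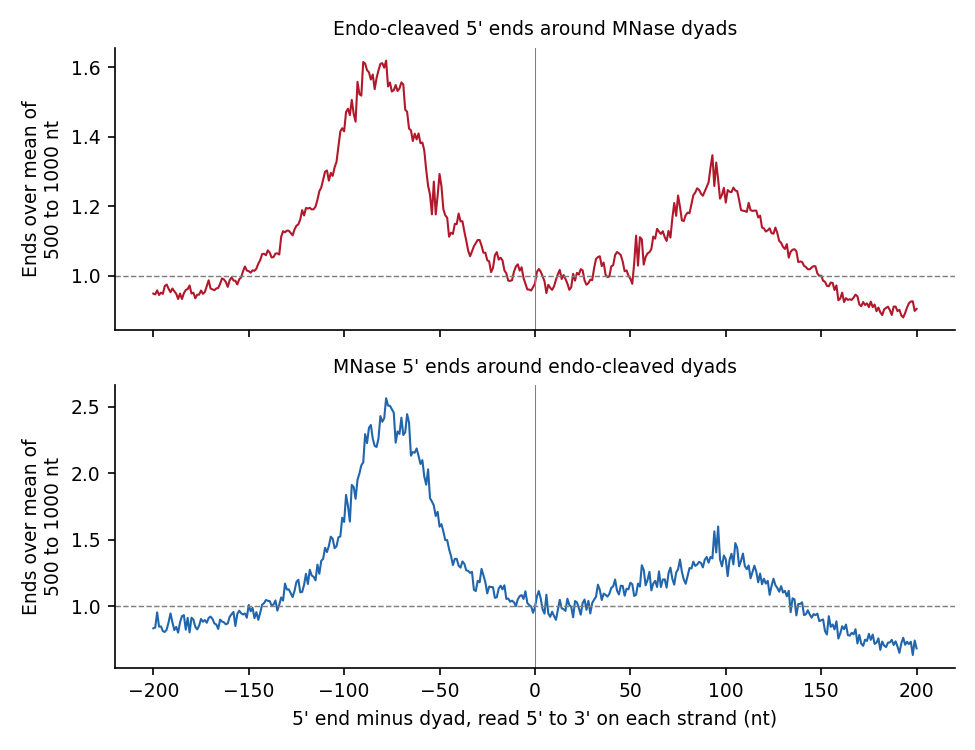
5′ ends of 1 library around dyads called in the other, by position in nt with each strand read 5′ to 3′ (x axis), divided by the mean at 500 to 1000 nt (y axis, a separate scale for each panel). Endo-cleaved ends peak near 85 nt upstream of MNase dyads at 1.59, and MNase ends peak near 76 nt upstream of endo-cleaved dyads at 2.42, in each case with a second, lower maximum downstream.

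At the 3-fold limit, few dyads were called in both libraries. Of the 12450 endo-cleaved dyads, 2271 or 18.2% had an MNase dyad within 20 nt (95% exact binomial interval 17.6 to 18.9%, counting error only). These were 3.25% of the 69840 MNase dyads (3.12 to 3.39%). Because fewer endo-cleaved than MNase dyads were called, most MNase dyads could have no endo-cleaved partner. With the endo-cleaved library thinned to the number of MNase ends, 31930 endo-cleaved dyads were called in place of 12450. The 4390 shared dyads then made up 13.7% of the endo-cleaved and 6.29% of the MNase dyads. With every tag counted, 33364 endo-cleaved and 95481 MNase dyads were called, and 17.4% and 6.08% were shared. The shares thus depend on depth and counting by more than their intervals show. For 391 endo-cleaved dyads, 3.14%, the nearest MNase dyad lay 70 to 110 nt away, which is about where linker DNA would be. That range holds more positions than the 20 nt on either side of a dyad. By chromosome the share of endo-cleaved dyads ran from 16.3% on IV to 21.5% on X. The share of MNase dyads had X lowest instead, with 2.10%, and I highest, with 3.96%. Chromosome X had the fewest endo-cleaved dyads, 1301, beside 13332 MNase dyads. Neither order therefore ranks the chromosomes by agreement.

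Endo-cleaved dyads became fewer with distance from the nearest MNase dyad. Counted per nt on either side, endo-cleaved dyads with their nearest MNase dyad at 0 to 10 nt numbered 65.6, against 24.4 at 21 to 30 nt and 4.45 at 91 to 100 nt. The share of MNase dyads also depends on how sharp a dyad must be. With a limit of 2 times the surroundings, 29287 dyads were shared, 18.8% of 155817 in the MNase library and 18.1% of 162153 in the endo-cleaved library. The lower limit also raised the number of endo-cleaved dyads from 12450 to 162153. The share that the density of calls alone would give was not computed at either limit.

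The 5 shared dyads with the highest enrichment in the weaker library are the extremes of that ranking and need not be typical of shared dyads. On chromosome III the MNase dyad at 450562 had 4 plus-strand and 5 minus-strand midpoints, 18.3 times its surroundings, and the endo-cleaved dyad at 450564 had 7 and 4 midpoints, 12.2 times. On chromosome V the dyads at 15107772 (MNase, 6 and 4 midpoints) and 15107766 (endo-cleaved, 4 and 5 midpoints) lay 6 nt apart. On chromosome III a further pair lay at 9418488 and 9418486, with 5 and 5 MNase midpoints and 5 and 6 endo-cleaved midpoints. Chromosome IV held the remaining pairs, at 5066065 and 5066068 and at 8580930 and 8580929. All 5 rest on 9 or 10 midpoints in the MNase library and 9 to 20 in the endo-cleaved library. With so few midpoints, a high enrichment means that the surrounding 1 kb held few ends.

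At a coarser scale the libraries covered the same parts of the genome. Over 98936 windows of 1 kb with an end in either library, Spearman's rho between the numbers of ends was 0.727, and the median window held 138 endo-cleaved and 67 MNase ends. Chromosome I had the highest rho, 0.744, followed by III with 0.742, II with 0.730 and IV with 0.729. Chromosome V had 0.698 and chromosome X the lowest value, 0.660. This is a description over windows, which share the library, its depth and the parts of the genome to which tags of 25 nt can be mapped.

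Values for the other endo-cleaved libraries differed, and these libraries differ in fragment length, in depth and in single-end or paired-end reading. MNase ends had a rho of 0.725 with the ends of the paired-end endo-cleaved library, but of 0.612 with those of the 90 to 140 bp library. Between the endo-cleaved libraries rho was 0.760 for the 140 to 240 bp ends with the paired-end library and 0.787 with the 90 to 140 bp library. By chromosome, rho between the nucleases ran from 0.660 to 0.744 and rho between the 140 to 240 bp ends and the paired-end library from 0.692 to 0.792, so these ranges overlapped.

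Windows that differed were mostly richer in endo-cleaved ends. After both libraries were scaled to the same total, 6124 of 97761 windows with at least 20 ends had more than 2 times as many endo-cleaved as MNase ends, which is 6.26%. The reverse held for 422 windows, 0.432%, and for both directions together 6.70% of the windows were past 2-fold. With every tag counted, 8237 windows were rich in endo-cleaved ends and 1362 in MNase ends, so the number of MNase-rich windows depends on the counting. Of 9989 windows of 10 kb, 48 were rich in endo-cleaved ends and 1 in MNase ends. The SD of the log2 ratio over windows was 0.53, against 0.24 from counting alone. The windows rich in endo-cleaved ends were most frequent on chromosomes III, with 10.6%, and I, with 10.1%. Chromosome II had 6.73%, chromosome IV 6.0%, chromosome V 3.82% and chromosome X 2.35%. Those rich in MNase ends ranged only from 0.215% on III to 0.734% on V.

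Some of these windows stood alone and others lay in runs. The 6124 windows formed 4372 runs, of which 3252 were a single window. The number of single windows that scattered calls would give was not computed. The longest runs covered 11 windows on chromosome II from 10546001 to 10557000 and 10 windows on chromosome II from 11630001 to 11640000. MNase-rich windows formed 377 runs, and the longest had 4 windows, on chromosome III from 7634001 to 7638000 and on chromosome X from 1554001 to 1558000.

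The window with the highest ratio lay on chromosome V from 1002001 to 1003000, with 98 endo-cleaved and 3 MNase ends. Its ratio was 17.2, with an exact 95% interval of 5.70 to 84.7 from counting alone. Chromosome II from 12086001 to 12087000 had 104 and 5 ends, a ratio of 10.9. Chromosome V from 17957001 to 17958000 had 59 and 3 ends, and a window before it, from 17950001 to 17951000, had 110 and 6. Chromosome III from 2722001 to 2723000 had 57 and 3 ends.

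All 5 of these windows held 3 to 6 MNase ends, where the median window held 67, and their 57 to 110 endo-cleaved ends were also below the median of 138. These ratios therefore come from windows with very few MNase ends. At the other extreme, chromosome IV from 17069001 to 17070000 had 6 endo-cleaved and 16 MNase ends, 5.07 times more in the MNase library (exact 95% interval 1.89 to 15.8). Chromosome I from 11444001 to 11445000 was the only one of the 5 lowest windows above the median of MNase ends, with 87, against 50 endo-cleaved ends, a 3.31-fold difference. The remaining 3, on chromosome I from 10267001 to 10268000 and from 12262001 to 12263000 and on chromosome V from 17310001 to 17311000, had 11 endo-cleaved ends each and 19 to 23 MNase ends.

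Midpoints of the nucleases also coincided in windows whose coverage differed. Among MNase midpoints in windows rich in endo-cleaved ends, endo-cleaved midpoints within 20 nt were 1.17 times as frequent as at 70 to 110 nt. The value was 1.13 in the 91215 windows within 2-fold and 1.11 in the windows rich in MNase ends.

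Chromosome X held 19.1% of the endo-cleaved and 19.8% of the MNase positions. Relative to the autosomes, X was 0.958 times as covered in the endo-cleaved library as in the MNase library. Chromosome V was lower still, with 20.9% against 22.7%, while chromosomes I and III held 1.08 and 1.09 times the share of endo-cleaved positions that they held of MNase positions.

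**Figure D4:**
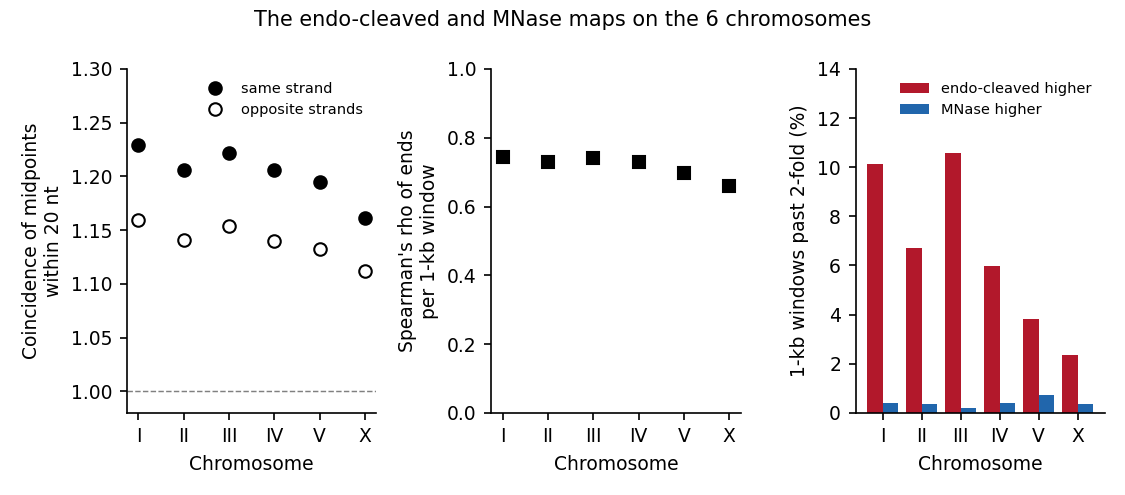
Coincidence of inferred midpoints within 20 nt for same-strand and opposite-strand pairs, Spearman's rho of ends per 1-kb window, and percentage of 1-kb windows past 2-fold in either direction, for each chromosome. Every chromosome lies above a coincidence of 1, chromosome X is lowest in coincidence (1.16 and 1.11) and in rho (0.660), and windows rich in endo-cleaved ends range from 2.35% on X to 10.6% on III.

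The sharing of positions was spread over the genome. In bins of 100 kb, all 1002 bins with at least 1000 ends of each library had a coincidence above 1, from 1.09 to 1.76 with a median of 1.17. The coincidence was higher where ends were sparse, with a Spearman's rho over bins of -0.853 with the number of endo-cleaved ends and of -0.589 with the number of MNase ends. Measured against offsets of 70 to 110 nt instead, a choice made after seeing the data, it ranged from 1.03 to 1.51 with a median of 1.13, and rho with the endo-cleaved ends was -0.588. The part of coverage in the differences between bins was not tested further.

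The highest bins lay at the left end of chromosome X. From 1 to 100000 the coincidence was 1.76 with 5047 endo-cleaved and 2749 MNase ends, from 200001 to 300000 it was 1.69, and the bin between them was also among the 5 highest. Against offsets of 70 to 110 nt these bins still had 1.45, 1.51 and, for the one between, 1.31. The other 2 of the 5 highest, on chromosome I from 1900001 to 2000000 and on chromosome II from 13300001 to 13400000, had 1.57 and 1.51, but 1.18 in both by the nearer offsets.

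The lowest bins were well covered. Chromosome II from 7700001 to 7800000 had 1.09 with 15614 endo-cleaved and 9081 MNase ends. Those on chromosome V from 11900001 to 12000000 and from 12500001 to 12600000, on chromosome I from 7600001 to 7700000 and on chromosome X from 11500001 to 11600000 had 1.09 to 1.10. With each chromosome divided into 3 parts of equal length, all 5 lie in a middle part.

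The middle parts were lower as a whole. On 6 of 6 chromosomes the middle part had the lowest coincidence, 1.12 to 1.14, against 1.15 to 1.25 in the outer parts. Against offsets of 70 to 110 nt it was again lowest on 6 of 6 chromosomes, with 1.11 to 1.12 against 1.12 to 1.15. Spearman's rho of the 1-kb windows followed, from 0.607 to 0.689 in the middle and from 0.657 to 0.797 outside. The middle part also held the most endo-cleaved ends on 6 of 6 chromosomes, 136 to 147 per kb, and whether this bears on the result was not tested.

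**Figure D5:**
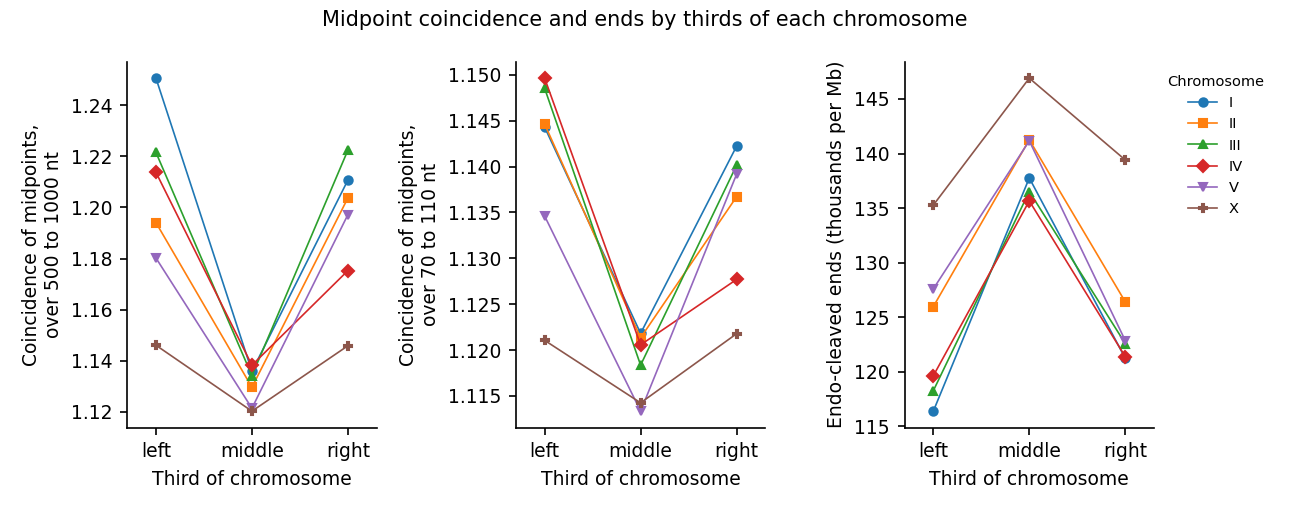
Coincidence of midpoints against offsets of 500 to 1000 nt and of 70 to 110 nt, and endo-cleaved 5′ ends per kb, in the left, middle and right of 3 equal parts of each chromosome (axes do not start at 0). The middle part has the lowest coincidence and the most ends on all 6 chromosomes.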

How the data were processed

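Oocyte DNA was sequenced on an Illumina GAIIx as single-end reads (the paired-end library on a HiSeq), and 25 nt of each read were mapped, with Bowtie 0.12.7 per the submitters' processing notes. The genome build is not given in the sources used here. The authors deposited lists of mapped positions with a count of tags for each, and the paired-end lists hold counts of tags for each fragment. The deposited single-end lists also hold a display score, which was not used. Blunting with T4 DNA polymerase removes 3′ overhangs and fills in 5′ overhangs, so that the 5′ end keeps the place of the cut.

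Each position and strand was counted once, since the endo-cleaved library holds 2.50 tags for each position. Pairs of ends were counted over the nuclear chromosomes with Python 3.11.15, NumPy 2.4.6, SciPy 1.17.1 and pandas 2.3.3, and figures were drawn with Matplotlib 3.10.9. The programs were checked on simulated data. Windows past 2-fold needed at least 20 ends of both libraries together, and bins at least 1000 ends of each. The regions named are the 5 highest and 5 lowest bins of 100 kb by coincidence and windows of 1 kb by ratio. The runs of windows and the 5 shared dyads named were chosen after their values were seen. Libraries, measures and regions to compare were chosen with earlier results of these data known.

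With 1 library per condition no p-value was computed. Intervals cover counting error only, since PCR copies without molecular identifiers are not independent molecules. Alternatives counted every tag, left out dense windows, or thinned the endo-cleaved library to 6852300 ends, the number in the MNase library. Others changed the shift, the baseline, the windows and the limits for dyads.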

Additional observations from a re-analysis of the deposited data

How the results depend on the processing

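No paired analysis was possible because each condition has 1 library, and for the same reason no replicate could be left out. For most measures a value was taken as moved past 1 SD over the chromosomes, with a minimum for positions. Window counts had a limit of 1.5 times, and shared dyads and X over autosomes had their counting intervals. Of 78 values recomputed under alternatives, 44 kept their direction and stayed within these limits, 33 moved by more and 1 reversed. The cause was not tested for any of them. The reversal was the most frequent offset between the nucleases, at -4 nt with a height of 1.26 after an 11-nt running mean (chosen after seeing the data) instead of 4 nt and 1.41.

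Counting every tag moved the most results. The opposite-strand distances became 152 and 151 nt, the end offset 1 nt with a height of 2.11, the coincidence 1.29 and the neighbouring maximum 128 nt. The Spearman rank correlation of the 1-kb windows became 0.685, MNase at endo-cleaved dyads 1.52, the median bin 1.19, MNase-rich windows 1362, shared dyads 17.4% of the endo-cleaved and 6.08% of the MNase dyads, and X over autosomes 0.964. Thinning gave a rank correlation of 0.676, MNase at endo-cleaved dyads of 1.53, and shared dyads of 13.7% and 6.29%. A shift of 70 nt gave 1.58 for MNase at endo-cleaved dyads, and 17.0% and 2.85% for shared dyads. A baseline of 70 to 110 nt, chosen after seeing the data, gave 1.13 for the coincidence, 1.13 for the median bin and 1.75 for MNase at endo-cleaved dyads. Of 9989 windows of 10 kb, 48 were endo-rich and 1 was MNase-rich. Shared dyads were 18.8% of the MNase dyads at 2 times the surroundings, and 16.6% of the endo-cleaved and 1.29% of the MNase dyads at 4 times. They were 11.1% and 1.97% within 10 nt, and 24.5% and 4.36% within 40 nt.

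The number of dyads called moves with depth, since thinning raised the endo-cleaved dyads from 12450 to 31930, so counts of dyads are not comparable between libraries of different depth. Ranges over chromosomes leave out variation between preparations.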
